A study of Mus musculus with 6 samples.

Results

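The genes of the basement membrane and of integrin chains, not all of which bind it, were followed in dissected mouse ear tissue after loss of Tbx1 from mesoderm. They were picked by gene symbol, namely laminin chains, nidogens, heparan sulfate proteoglycans, type IV and type XVIII collagens, Fras-Frem proteins, nephronectin, dystroglycan and integrin chains. All 37 symbols had a probe set on the array, out of 18193 genes that did, and all 37 passed the filter on dim signal. Together they were read by 88 probe sets, of which 79 passed that filter. Each of 6 Affymetrix Mouse Genome 430 2.0 arrays held RNA from the otic vesicle (the epithelial sac that becomes the inner ear) and its surrounding periotic mesenchyme, taken at embryonic day 11.5 and pooled from both ears of 3 embryos. In 3 pools, called Mest-KO, Tbx1 had been knocked out conditionally with T-Cre. The 3 control pools were T-Cre conditional Tbx1 heterozygotes, so the Cre is named in both genotypes and the controls are not wild type. T-Cre acts in mesoderm, so otic epithelium and neural crest in the Mest-KO pools were not targeted, and the whole dissected piece was measured rather than sorted cells.

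Basement membranes are thin sheets of matrix beneath epithelia and around vessels, nerves and muscle. Laminins, each made of an alpha, a beta and a gamma chain, and type IV collagen each form a network, and nidogens and heparan sulfate proteoglycans join these networks. Cells hold on to the sheet through integrins, which pair an alpha with a beta chain, and through dystroglycan. In the embryonic ear such a sheet lies between the otic vesicle and the mesenchyme around it.

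Few of these genes differed between genotypes beyond the spread of the arrays. Of the 37, 1 rose in Mest-KO and 0 fell (limma with Benjamini-Hochberg adjustment over 14170 genes, adjusted p under 0.05), where 0.148% of all genes passed in either direction, 0.0847% higher and 0.0635% lower. The gene that rose was Itga4, the integrin alpha 4 chain. At an unadjusted limma p under 0.05, 4 members were higher and 1 lower, against 5.73% and 3.24% of all genes. The 3 Mest-KO arrays lay wholly above the 3 control arrays for 4 members, and wholly below for 0. The same held for 9.32% and 5.22% of all genes. This balance depended on scaling, since with arrays centred on their medians 2 members lay above and 2 below, and the shares of all genes turned to 4.5% above and 9.48% below. These shares of members, 10.8% above and 13.5% with an unadjusted p under 0.05 in either direction, are near the background of 9.32% and 8.97% and say nothing particular about the group. The members' median log2 difference (Mest-KO minus control, on the log2(intensity + 16) scale) was -0.0087, beside 0.01 over all genes tested, and 18 of 37 were above 0, beside 53.8% of all genes.

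**Figure D1:**
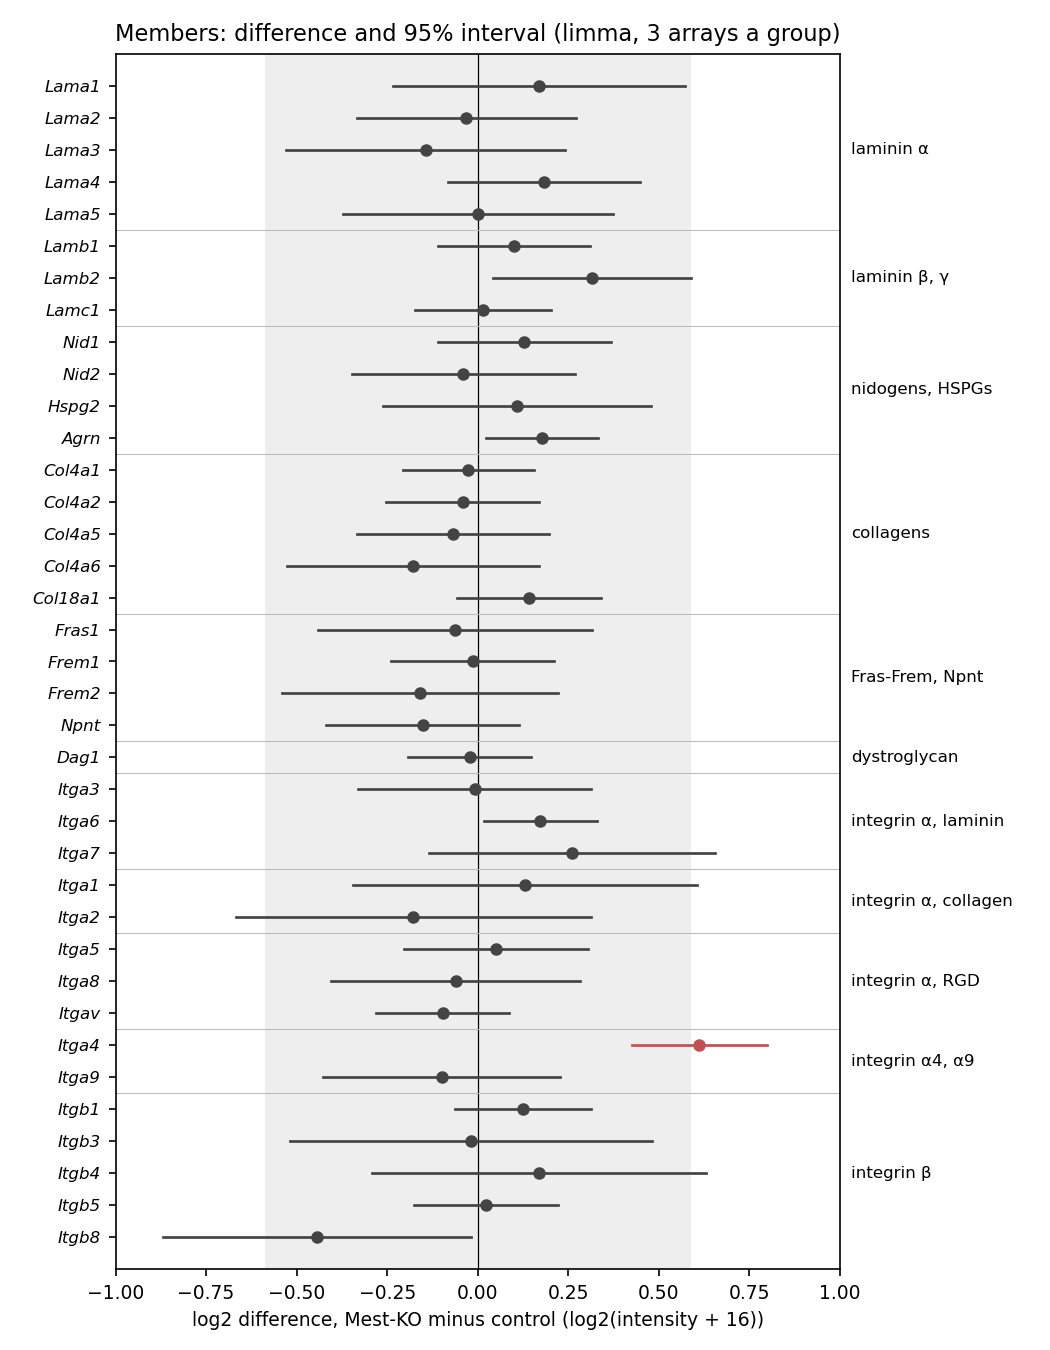
Log2 difference between Mest-KO and control (x axis, log2(intensity + 16), Mest-KO minus control) for each of the 37 members, in order of their roles. Points are estimates from each gene's brightest probe set and bars are 95% intervals from limma with 3 arrays a group. The grey band marks differences smaller than 1.5-fold. Only Itga4, in red, passed the adjusted threshold, and 30 of the 37 intervals lie inside the band.

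The precision was enough to bound most members as read by their brightest probe set, on the log2 scale used here. For 30 of the 37, the 95% interval of the difference lay within 1.5-fold either way, as it did for 79.7% of all genes. The 7 whose intervals reached further were Lamb2, Itga7, Itga1, Itga2, Itga4, Itgb4 and Itgb8. Standard errors of the members ran from 0.07 to 0.23 with a median of 0.12. The constant added before taking logs narrows the intervals of dim genes. With 1 added instead, the standard error of Lama3 was 0.28 rather than 0.17. Some dimmer probe sets of bounded members, picked for their wide intervals, were not bounded. The 95% intervals ran from -1.20 to 0.01 for Npnt 1426561_a_at and from -0.94 to -0.01 for Dag1 1426779_x_at. They ran from -0.99 to 0.18 for Itga9 1460285_at and from 0.08 to 0.95 for Nid1 1441519_at. Because whole tissue was measured, fewer cells of a type and less RNA per cell cannot be told apart in any of these values.

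A few facts of the whole series bear on the members. Array medians lay between 60.0 and 70.6 intensity units, and log2 values of the genes tested correlated at 0.987 or more between any 2 arrays. Background was set at 11.2, the brightest of 27 bacterial control probe sets with no matching RNA added. Tbx1 itself differed by -0.03 ± 0.14 (limma adjusted p = 0.967), with groups that overlapped. The gene was thus not measurably lower in the arrays labelled knockout, and the genotypes rest on the labels. Which part of the transcript its probe set reads was not analysed here. The labelled tissues were present, with 9 of 9 otic epithelium markers and 10 of 10 periotic mesenchyme markers above background on all 6 arrays. Markers of hindbrain neural tube, a neighbouring tissue, were unevenly present. Their mean log2 deviation from the 6-array mean was 0.87, -0.23 and 0.98 on control arrays 1, 2 and 3, and -0.69, -0.12 and -0.81 on Mest-KO arrays 1, 2 and 3. Their part in the results was not tested.

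Itga4 encodes the alpha 4 chain, which pairs with the beta 1 or beta 7 chain and binds fibronectin and the cell surface protein Vcam1. Its brightest probe set, 1436037_at, read 1485, 1617 and 1571 on control arrays 1, 2 and 3, and 2476, 2524 and 2177 on Mest-KO arrays 1, 2 and 3. All 3 Mest-KO arrays were above all 3 control arrays, and the lowest Mest-KO value, 2177, was well clear of the highest control value, 1617. The group means were 1558 ± 66.9 in the controls against 2393 ± 188 in Mest-KO (SD over 3 arrays), a ratio of 1.54. On the log2 scale Mest-KO exceeded control by 0.61 ± 0.08 (limma, adjusted p = 0.0256), and the 95% interval ran from 0.42 to 0.80. An exact two-sided permutation test of 3 arrays against 3 gave p = 0.1, the smallest it can give.

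The other probe sets of Itga4 did not show a difference of that size. The next brightest, 1421194_at, read 549, 439 and 550.3 on control arrays 1, 2 and 3, and 561, 500.3 and 427 on Mest-KO arrays 1, 2 and 3. Its groups overlapped, and its difference was -0.05 ± 0.14 with a 95% interval from -0.35 to 0.26, which leaves out the estimate of the brightest probe set (limma over 31526 probe sets, adjusted p = 0.947). Probe set 1456498_at read 175, 249 and 211 on control arrays 1, 2 and 3, and 244, 246 and 312 on Mest-KO arrays 1, 2 and 3. Its difference was 0.32 ± 0.16 (adjusted p = 0.556 by limma), higher on average but with control 2 above Mest-KO 1 and Mest-KO 2. Probe set 1450155_at read 218, 219 and 178 on control arrays 1, 2 and 3, and 202, 266 and 289 on Mest-KO arrays 1, 2 and 3, a difference of 0.27 ± 0.16 (adjusted p = 0.621 by limma), and its groups overlapped as well. The fifth, 1427615_at, was at or below background on all 6 arrays, between 1.37 and 7.25, and gives only a bound.

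**Figure D2:**
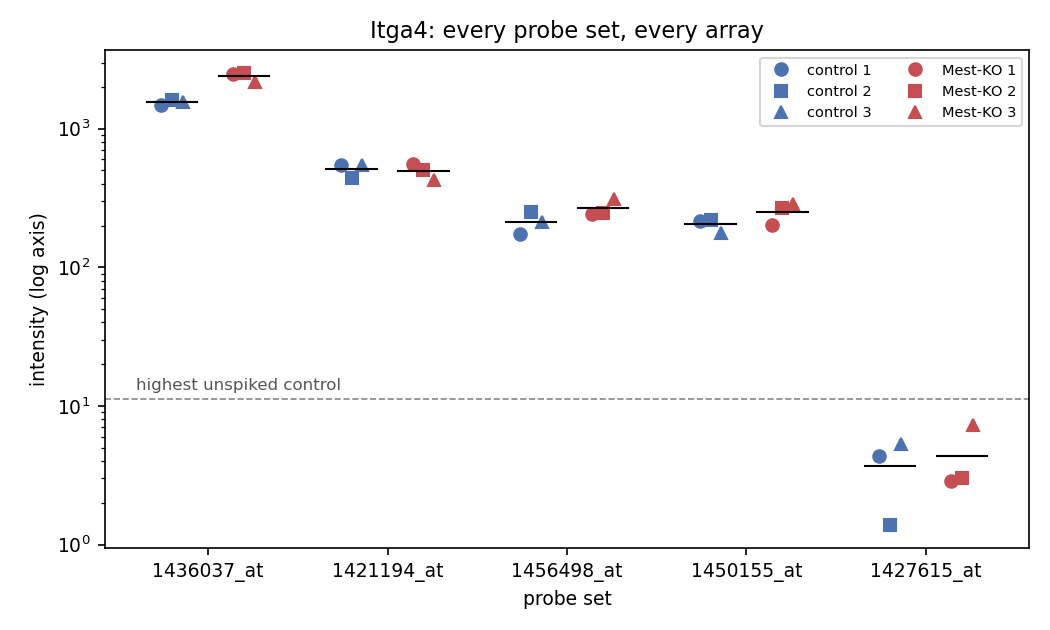
Intensity (y axis, log scale) of every Itga4 probe set (x axis) on each of the 6 arrays, with blue for control, red for Mest-KO and marker shapes for the replicate number. Black lines are group means, and the dashed line is the highest unspiked control, 11.2. The groups stand apart at 1436037_at, overlap at the next 3 and lie under background at 1427615_at.

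The same divergence of probe sets can be read within each array, from ratios computed after the differences above were known. The log2 ratio of 1436037_at to 1421194_at was 1.41, 1.84 and 1.49 on control arrays 1, 2 and 3, and 2.11, 2.30 and 2.31 on Mest-KO arrays 1, 2 and 3. The ratio was thus higher on every Mest-KO array, by 0.66 on average (exact two-sided permutation p = 0.1, the smallest possible with 3 against 3). Against 1456498_at and 1450155_at the ratio was higher by 0.29 and 0.34, with groups that overlapped (exact two-sided permutation p = 0.3 and 0.2). With the background-level probe set included, 4 such ratios were computed, and the Benjamini-Hochberg adjusted p of the first was 0.2. The first ratio restates the 2 probe sets' differences and adds no separate evidence. The positions of these probe sets within the Itga4 transcript were not analysed here.

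The Itga4 call did not hold in every setting. It passed the adjusted threshold in 8 of 16 alternatives, with a difference from 0.24 to 0.68 and limma adjusted p from 0.0097 to 0.401. It did not pass without control 1 (adjusted p = 0.1), without control 3 (0.0983), without Mest-KO 1 (0.144) or without Mest-KO 2 (0.0958), although the difference stayed between 0.57 and 0.62 in these. It also did not pass with no filter (adjusted p = 0.0816) or without the variance trend (0.15). The smallest difference, 0.24 ± 0.09 (limma adjusted p = 0.401), came from averaging all 5 probe sets of the gene.

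Itga4 lies on mouse chromosome 2, and its RefSeq gene model overlaps that of Cerkl, a ceramide kinase-like gene. The Cerkl probe set tested was dim, between 19.2 and 24.6 on the 6 arrays, and differed by -0.04 ± 0.17 (limma adjusted p = 0.966). Ube2e3, a ubiquitin-conjugating enzyme gene and the neighbour on the other side, differed by -0.20 ± 0.13 (limma adjusted p = 0.71). Neither neighbour passed the threshold, and no direction can be read from these 2 estimates.

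The promoter of Itga4 is shown because Tbx1 is a T-box factor and Itga4 was the member that rose, with those of Itgb8 and Lamb2, the members with the next largest differences, for comparison. Each is the 250 bases before the first listed RefSeq start in GRCm38.p6, 5′ to 3′ on the gene's strand, at chr2:79255176-79255425 (plus strand) for Itga4, chr12:119238277-119238526 (minus strand) for Itgb8 and chr9:108479612-108479861 (plus strand) for Lamb2. Capitals mark exact matches, on either strand, to the T-box half-site core GGTGTGA, the GC box GGGCGG or the CCAAT box CCAAT.
Itga4: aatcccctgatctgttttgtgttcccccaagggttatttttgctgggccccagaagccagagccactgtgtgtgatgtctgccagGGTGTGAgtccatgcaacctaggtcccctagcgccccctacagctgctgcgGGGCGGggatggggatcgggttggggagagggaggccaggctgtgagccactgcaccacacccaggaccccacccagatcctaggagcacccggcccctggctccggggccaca
Itgb8: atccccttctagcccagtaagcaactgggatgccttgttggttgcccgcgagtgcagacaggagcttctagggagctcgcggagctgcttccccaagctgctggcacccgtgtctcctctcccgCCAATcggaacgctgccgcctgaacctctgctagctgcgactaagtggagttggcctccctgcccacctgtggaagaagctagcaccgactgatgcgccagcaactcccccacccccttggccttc
Lamb2: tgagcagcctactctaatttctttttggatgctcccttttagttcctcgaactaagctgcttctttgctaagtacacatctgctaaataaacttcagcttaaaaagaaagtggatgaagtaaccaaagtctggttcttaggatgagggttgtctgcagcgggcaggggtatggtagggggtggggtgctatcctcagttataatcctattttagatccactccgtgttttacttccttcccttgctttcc

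Of the 37 members, 27 had such a window in the RefSeq table. The core GGTGTGA stood in the window of 1 of them, Itga4, at 165 to 159 bases before the start, and in 3.33% of all 32851 windows of that length. The longer half-site AGGTGTGA, which contains that core, stood in 0 of the 27 and in 1.12% of all windows. Itga4 had a GC box 114 to 109 bases before its start, Itgb8 had a CCAAT box and Lamb2 had neither. GC boxes stood in 16 of the 27 members' windows, 59.3%, against 32.7% of all windows, CCAAT boxes in 33.3% against 33.8%, and the TATA box TATAAA in 0 against 12.4%. By base composition 23 of the 27 windows were above the median of all windows, 52.4% G or C. Each member is counted by 1 window, the first listed, while the values for all windows count every listed start. These shares are thus not strictly alike. Such matches describe the letters in a window and are not shown to be bound.

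Neither partner of alpha 4 gave a call. Itgb7, the beta 7 chain, was too dim to be tested, at or below background on 3 of the 6 arrays and between 4.02 and 25.0 in all. Itgb1, the beta 1 chain that most integrin alpha chains of the list pair with, read 1293, 1439 and 1399.6 on control arrays 1, 2 and 3, and 1431, 1579.7 and 1497 on Mest-KO arrays 1, 2 and 3. Control 2 was above Mest-KO 1, and the difference was 0.12 ± 0.09 (95% interval from -0.06 to 0.31; limma, adjusted p = 0.709). Itga9, the alpha chain closest in kind to alpha 4 and a receptor for tenascin, read 356 ± 55.9 in the controls against 329.8 ± 42.7 in Mest-KO (SD over 3 arrays), a difference of -0.10 ± 0.15 with a 95% interval from -0.43 to 0.23. Its interval stops short of the Itga4 estimate.

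None of the 3 laminin-binding integrin alpha chains passed the threshold. Itga6, whose alpha 6 chain binds laminin beneath epithelia, read 2892, 3039.6 and 2929 on control arrays 1, 2 and 3, and 3565, 3214 and 3226 on Mest-KO arrays 1, 2 and 3. Its 3 Mest-KO arrays were all above control, but the difference was small, 0.17 ± 0.07, and did not pass (limma, adjusted p = 0.497). A second Itga6 probe set differed the other way, -0.10 ± 0.17, with groups that overlapped. Itga7, the alpha 7 chain of muscle, read 64.5, 45.4 and 39.3 on control arrays 1, 2 and 3, and 61.7, 57.2 and 66.5 on Mest-KO arrays 1, 2 and 3, and control 1 lay among the Mest-KO arrays (difference 0.26 ± 0.18). Itga3, a laminin receptor of epithelia, differed by -0.0087 ± 0.15, an estimate near 0 with a 95% interval from -0.33 to 0.31.

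Of the collagen receptors, Itga1 read 494, 449 and 277 on control arrays 1, 2 and 3, and 448, 537 and 339 on Mest-KO arrays 1, 2 and 3. Control 3 and Mest-KO 3 were the low arrays, so the spread within each group exceeded the difference of 0.13 ± 0.22. Itga2 was dim, between 5.27 and 21.0, with Mest-KO 3 below background, and no direction can be read from it (-0.18 ± 0.22).

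Integrins that bind the RGD sequence of fibronectin, vitronectin and nephronectin did not pass either. Itga5, the fibronectin receptor chain, read 1165 ± 99.7 in the controls against 1212 ± 165 in Mest-KO (SD over 3 arrays; 0.05 ± 0.12). Itgav, which pairs with several beta chains, read 4347 ± 445 in the controls against 4052 ± 214 in Mest-KO (-0.10 ± 0.08), and its 95% interval, from -0.28 to 0.09, was among the narrower ones. Itga8, the nephronectin receptor chain, differed by -0.06 ± 0.16, and its ligand gene Npnt by -0.15 ± 0.12. One of 5 Npnt probe sets, 1426561_a_at, chosen after its values were seen, differed by more, -0.59 ± 0.27 (limma adjusted p = 0.525), with 304, 338 and 261 on control arrays 1, 2 and 3, and 109.9, 210.4 and 306 on Mest-KO arrays 1, 2 and 3, where Mest-KO 1 was lowest and Mest-KO 3 was within the control values.

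Itgb8 had the largest difference toward lower levels. The beta 8 chain pairs with alpha v and helps to release active TGF-beta. Its intensities were 392, 237 and 386 on control arrays 1, 2 and 3, and 269, 252 and 199 on Mest-KO arrays 1, 2 and 3. Control 1 and control 3 were high and control 2 lay within the Mest-KO range, so the groups overlapped. The difference was -0.44 ± 0.19, its 95% interval ran from -0.87 to -0.02, and it did not pass (limma, adjusted p = 0.532; exact permutation p = 0.3). Over the alternatives it ranged from -0.67 to -0.32, with limma adjusted p from 0.127 to 0.851. Hindbrain neural tube markers were also high in control 1 and control 3 and lower in control 2, at mean deviations of 0.87, 0.98 and -0.23. Their part in the Itgb8 difference was not tested.

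The remaining beta chains gave no call. Itgb3, the beta 3 chain of vessels and platelets, read 255, 299 and 338 on control arrays 1, 2 and 3, and 340.0, 387 and 187 on Mest-KO arrays 1, 2 and 3. Mest-KO 2 was the highest and Mest-KO 3 the lowest of the 6, and the difference was -0.02 ± 0.23. Itgb5, another partner of alpha v, read 942 ± 32.2 in the controls against 958 ± 45.1 in Mest-KO (SD over 3 arrays; 0.02 ± 0.09), and its 4 probe sets differed by -0.08 to 0.04. Itgb4, the beta 4 chain that joins alpha 6 in epithelial hemidesmosomes, was dim, between 17.3 and 38.4 (0.17 ± 0.21). Dag1, which encodes dystroglycan, a laminin receptor that is not an integrin, differed by -0.02 ± 0.08 with a 95% interval from -0.19 to 0.15. Its 4 probe sets, described after their values were seen, were all lower on average in Mest-KO, by -0.47 to -0.02, and 0 of them passed.

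**Figure D3:**
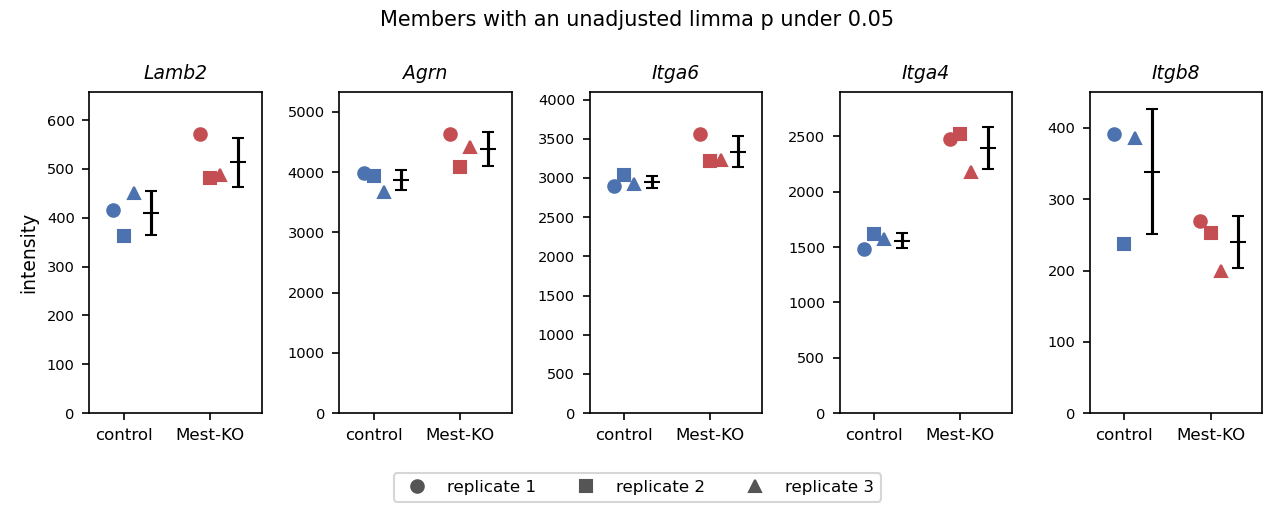
Intensity (y axes, starting at 0 and each with its own range) of the 5 members with an unadjusted limma p under 0.05, by genotype. Symbols are single arrays, shaped by replicate number, and black bars are the mean and SD of 3 arrays. The groups are apart for Lamb2, Agrn, Itga6 and Itga4 and overlap for Itgb8, where control 2 reads 237.

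Among the matrix proteins, 2 of 21 had groups that did not overlap, Lamb2 and Agrn, both higher in Mest-KO. That is 9.52% of them, beside 9.32% of all genes, and 0 passed the adjusted threshold. Lamb2, the laminin beta 2 chain found around vessels and at synapses, read 416, 362 and 451 on control arrays 1, 2 and 3, and 572, 481 and 487 on Mest-KO arrays 1, 2 and 3. The Mest-KO arrays were all higher, with Mest-KO 2 at 481 close above control 3 at 451. Its difference was 0.32 ± 0.12 (95% interval from 0.04 to 0.59; limma, adjusted p = 0.472), and it ranged from 0.23 to 0.38 over the alternatives. Agrn, which encodes the heparan sulfate proteoglycan agrin, read 3987, 3939 and 3678 on control arrays 1, 2 and 3, and 4638, 4085 and 4418 on Mest-KO arrays 1, 2 and 3. Again all Mest-KO arrays were higher, but by little (0.18 ± 0.07; limma, adjusted p = 0.475). With arrays centred on their medians, the groups of Agrn and Itga6 overlapped, which left 2 members above control, Lamb2 and Itga4, beside 4.5% of all genes. Under that scaling 2 members lay below, Itgav and Itgb8, or 2 of 37 beside 9.48% of all genes, a share no higher than the background.

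The other 7 laminin chains had groups that overlapped. Lama1, an early embryonic alpha chain, read 366, 309 and 374 on control arrays 1, 2 and 3, and 509, 416 and 289 on Mest-KO arrays 1, 2 and 3, so that the Mest-KO arrays held both the highest and the lowest value (difference 0.17 ± 0.18). Lama4, the alpha chain of vessels, read 964, 899.5 and 954 on control arrays 1, 2 and 3, and 1160.3, 1191 and 879 on Mest-KO arrays 1, 2 and 3, with Mest-KO 1 and 2 above control and Mest-KO 3 below (0.18 ± 0.12). Lamb1, the common embryonic beta chain, followed the same pattern at 2074, 2084 and 2135 on control arrays 1, 2 and 3, and 2457, 2387 and 1939 on Mest-KO arrays 1, 2 and 3 (0.10 ± 0.10). Lamc1, the gamma chain shared by most laminins, was the steadiest laminin gene, with values from 1055 to 1142 and a difference of 0.02 ± 0.09 (95% interval from -0.17 to 0.20). Lama2, the alpha chain of muscle and nerve, and Lama5, an alpha chain of mature epithelia, differed by -0.03 ± 0.14 and 0.00056 ± 0.17. Lama3, the alpha chain of skin laminin, was dim, between 19.3 and 30.6 (-0.14 ± 0.17).

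Nidogens and perlecan, which link the laminin and collagen networks, overlapped between genotypes. Nid1 read 3029, 3510.5 and 3569 on control arrays 1, 2 and 3, and 3442, 4381 and 3295 on Mest-KO arrays 1, 2 and 3, where Mest-KO 2 was the highest and the other 2 Mest-KO arrays lay within control (0.13 ± 0.11). A dim Nid1 probe set, 1441519_at, read 19.7, 13.8 and 17.3 on control arrays 1, 2 and 3, and 38.4, 34.7 and 21.1 on Mest-KO arrays 1, 2 and 3. Its groups did not overlap, but the difference of 0.51 ± 0.20 did not pass (limma, adjusted p = 0.428), and probe set 1448469_at differed by -0.13 ± 0.14. Nid2 read 841 ± 130.0 in the controls against 818 ± 121 in Mest-KO (SD over 3 arrays; -0.04 ± 0.14). Hspg2, which encodes perlecan, differed by 0.11 ± 0.17, with Mest-KO 1 alone at 598 and the other 5 arrays between 386 and 484.

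The type IV collagen genes sit in head-to-head pairs. Col4a1 and Col4a2, which encode the chains of the common type IV collagen, have RefSeq starts 21 bases apart, and Col4a5 and Col4a6 have theirs 1343 bases apart on the X chromosome. Col4a1 read 5177, 4725 and 4829.8 on control arrays 1, 2 and 3, and 4924, 5311 and 4279.9 on Mest-KO arrays 1, 2 and 3. Col4a2 read 4715, 3877 and 4434 on control arrays 1, 2 and 3, and 4391, 4568 and 3704 on Mest-KO arrays 1, 2 and 3. In both genes Mest-KO 3 was the lowest array and control 2 the lowest of the controls, and the genotypes differed by -0.03 ± 0.08 and -0.04 ± 0.10, with 95% intervals from -0.21 to 0.16 and from -0.25 to 0.17. Col4a5 and Col4a6 differed by -0.07 ± 0.12 and -0.18 ± 0.16, again with Mest-KO 3 lowest. Col18a1, the type XVIII collagen from which endostatin is cut, read 2106, 2126 and 1988 on control arrays 1, 2 and 3, and 2535, 2315 and 2040.2 on Mest-KO arrays 1, 2 and 3, with Mest-KO 1 and 2 above control and Mest-KO 3 within it (0.14 ± 0.09).

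Fras1, Frem1 and Frem2 encode matrix proteins that hold embryonic epithelia to their mesenchyme. Fras1 read 123, 202 and 170.1 on control arrays 1, 2 and 3, and 147, 156 and 160.5 on Mest-KO arrays 1, 2 and 3, with all Mest-KO values inside the control range (-0.06 ± 0.17). Its other probe set, 1440765_at, described after its values were seen, read 56.2, 52.9 and 62.7 on control arrays 1, 2 and 3, and 78.0, 70.3 and 74.1 on Mest-KO arrays 1, 2 and 3. There the Mest-KO arrays were all higher, by 0.30 ± 0.15, which did not pass (limma, adjusted p = 0.563), and with the mean over both probe sets the gene's difference was 0.12. Frem1 varied little, from 579.8 to 647 (-0.01 ± 0.10; 95% interval from -0.24 to 0.21). Frem2 read 209 ± 37.4 in the controls against 186 ± 34.2 in Mest-KO (SD over 3 arrays; -0.16 ± 0.17).

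The members' values were uneven across the Mest-KO arrays. Mest-KO 3 gave the lowest of the 6 values for 17 of the 37 members, 45.9%, while it was lowest for 19% of all genes tested. Among the collagens it was lowest for 4 of 5, among the laminins for 4 of 8 and among the integrins for 7 of 15. Of 17 other basement membrane genes tested, outside the 37, Mest-KO 3 was also lowest for Lamc3, Col4a4, Col15a1, Smoc1 and Pxdn, and not for the rest. Mest-KO 2 gave the highest value for 13 of the 37, 35.1%, beside 15.4% of all genes, among them 8 of 15 integrins. The members' median deviation from the mean of the 6 arrays was -0.09 in Mest-KO 3, 0.07 in Mest-KO 1 and 0.07 in Mest-KO 2, and between -0.04 and -0.0098 in the controls, while over all genes no array's median deviated by more than 0.02 in size. Erythroid markers were also lowest in Mest-KO 3, at a mean deviation of -0.51, and highest in Mest-KO 1, at 0.31. Their part in this pattern was not tested.

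**Figure D4:**
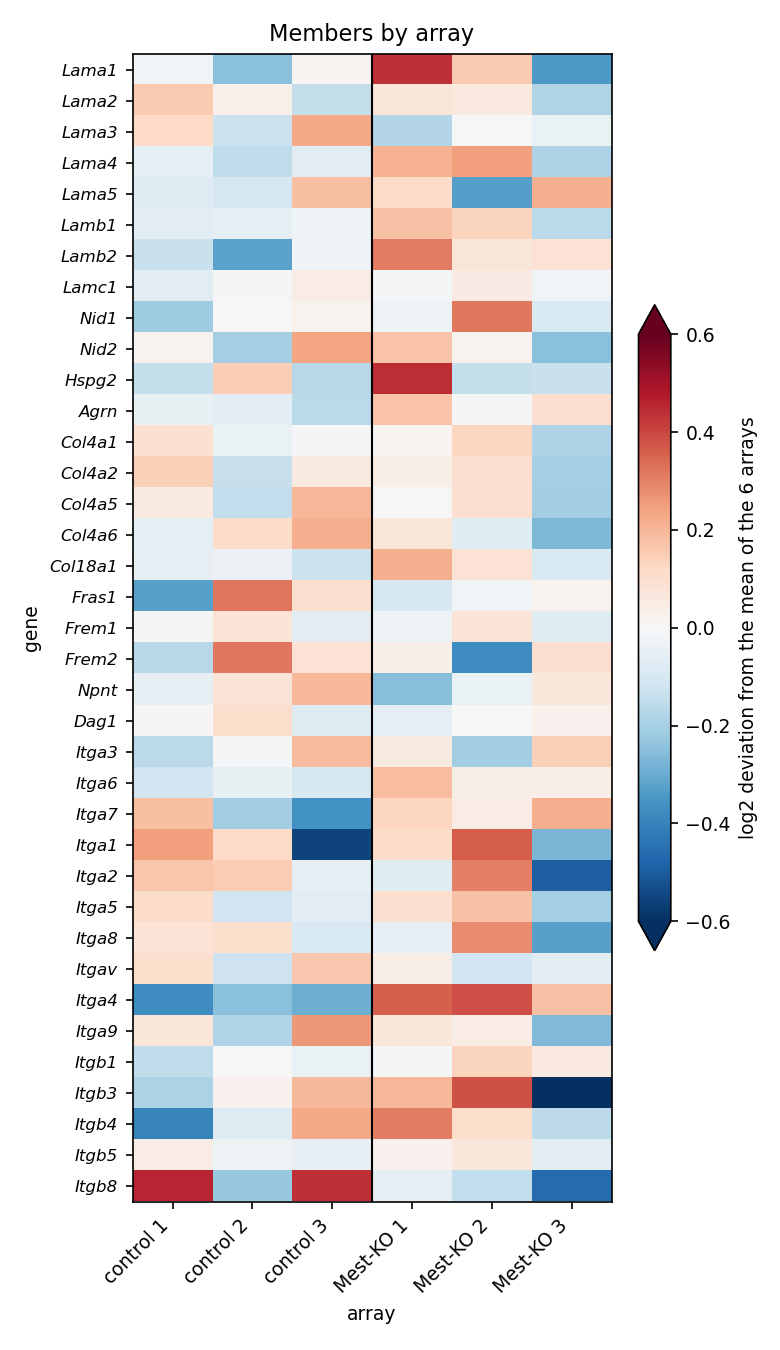
Log2 deviation of each member (rows) from its own mean over the 6 arrays (columns), in red above and in blue below, with colours saturating at 0.6 either way. The right-hand column, Mest-KO 3, is the lowest of the 6 arrays for 17 of 37 members, and Itga4 is the row in which the 3 controls are blue and the 3 Mest-KO arrays red most clearly.

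Leaving Mest-KO 3 out changed the count of separated members. With Mest-KO 1 and 2 against the 3 controls, 9 members lay wholly above control where 4 had, namely Lama1, Lama4, Lamb1, Lamb2, Agrn, Col18a1, Itga6, Itga4 and Itgb3, and 0 lay below. With fewer arrays the groups separate more often, and 16.8% of all genes lay above and 10.1% below. In the same fit 1 member passed the limma threshold, Itga4 (difference 0.68, adjusted p = 0.0166), and 27 of 37 differences were above 0, beside 55.4% of all genes. Mest-KO 3 was singled out for its low values, so the rise in these counts follows from that choice and is no separate result. Leaving out Mest-KO 1 instead gave 5 members above control and 16 differences above 0, and leaving out Mest-KO 2 gave 4 and 15. The shares of all genes above control were 13.1% and 15%. In each case 1 member lay below, beside 9.11% and 10.2% of all genes. Without control 2, 4 members lay wholly below control, Lama3, Itgav, Itga9 and Itgb8, beside 12% of all genes, and without control 1, 3 did, Col4a6, Fras1 and Npnt, beside 7.66%. Without control 3, 0 lay below, beside 10.1%. Wholly above control lay 5, 5 and 4 members without control 1, 2 and 3, beside 14.5%, 15.3% and 13.7% of all genes.

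Probe sets of one gene often differed in sign, also in members with a large difference at 1 probe set. Differences ran from -0.05 to 0.61 in Itga4, from -0.59 to 0.04 in Npnt and from -0.13 to 0.51 in Nid1. In Dag1, from -0.47 to -0.02, they kept 1 sign. Among 23 members with 2 or more tested probe sets, all of them pointed the same way in 8, Lama5, Col4a1, Col4a5, Col4a6, Col18a1, Dag1, Itga3 and Itga8. Of the 79 tested probe sets, 1 passed, Itga4 probe set 1436037_at (limma adjusted p = 0.0387), higher in Mest-KO. It passed in 7 of 15 alternatives of this fit, with adjusted p from 0.0148 to 0.217, and was lost with median centring (0.0735), with no filter (0.16) and without control 1, control 3, Mest-KO 1 or Mest-KO 2 (0.126 to 0.203). The count of 1 stands beside 0.0254% of all 31526 called higher and 0.0666% in either direction.

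Other genes of matrix adhesion were taken from 6 lists, of which 79 of 97 genes were tested. As a whole 1 rose and 0 fell at the limma threshold, beside 0.0847% and 0.0635% of all genes, and the median difference was 0.01, beside 0.01 over all genes. Groups were apart upward for 7.59% and downward for 6.33% of these 79, near the 9.32% and 5.22% of all genes. The gene that rose was Postn, whose product periostin is a matrix ligand of alpha v integrins. It read 1574, 1395 and 1611 on control arrays 1, 2 and 3, and 2216, 2267 and 2223 on Mest-KO arrays 1, 2 and 3, with every Mest-KO array above every control (0.55 ± 0.08; limma, adjusted p = 0.0337). Like Itga4, it lost its call in some settings and passed in 7 of 16 alternatives, and it did not pass without control 1, without control 3 or without any single Mest-KO array (limma adjusted p from 0.071 to 0.158 in these), while its difference ranged from 0.48 to 0.59.

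Ligands outside the basement membrane otherwise gave no call among 13 tested. Thbs1, which encodes thrombospondin 1, read 537, 633 and 552 on control arrays 1, 2 and 3, and 672, 802 and 674 on Mest-KO arrays 1, 2 and 3, apart between groups but short of the threshold (0.31 ± 0.11; limma, adjusted p = 0.439). Tnc, the tenascin bound by alpha 9, differed by -0.34 ± 0.18, and its groups overlapped. The ligands of alpha 4, picked for mention once their values were known, gave no call beside it. Vcam1 read 3483, 3539 and 4099 on control arrays 1, 2 and 3, and 3165, 3414 and 3416 on Mest-KO arrays 1, 2 and 3, all Mest-KO arrays being a little lower (-0.15 ± 0.08; limma, adjusted p = 0.615), and Fn1, the fibronectin gene, differed by 0.10 ± 0.10.

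Proteins that link integrins to the cytoskeleton gave 0 calls among 18 tested. Bcar1, which encodes the docking protein p130Cas, came nearest. It read 1779.9, 1975 and 1448 on control arrays 1, 2 and 3, and 2668, 2854 and 2024 on Mest-KO arrays 1, 2 and 3, with the lowest Mest-KO value just above the highest control (0.53 ± 0.14; limma, adjusted p = 0.224). Parvb, an adaptor in the complex with integrin-linked kinase, was higher on all 3 Mest-KO arrays too (0.35 ± 0.12; adjusted p = 0.418 by limma). The paxillin gene Pxn differed by 0.27 ± 0.12, with Mest-KO 2 inside the control range.

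The other lists held 0 calls. Among 17 other basement membrane components the smallest p-values belonged to Egflam, encoding pikachurin (0.23 ± 0.11), Grip1, needed to deliver Fras1 to the cell surface (0.18 ± 0.10), and Smoc2 (0.25 ± 0.16). Among 16 other matrix receptors and dystroglycan partners they belonged to Cd151, a tetraspanin partner of laminin-binding integrins (0.19 ± 0.09), the sarcoglycan gene Sgce (-0.15 ± 0.09) and Pomt2, which helps to glycosylate dystroglycan (-0.17 ± 0.12). Of 10 proteases and inhibitors, the heparanase gene Hpse (-0.35 ± 0.14) was lower on every Mest-KO array, while Timp3 (0.18 ± 0.10) and Timp2 (-0.11 ± 0.08), inhibitors of metalloproteases, overlapped. Of 5 other integrin chains tested, Itgb2, Itga2b and Itgal, chains of blood cells, differed by 0.22 ± 0.18, 0.18 ± 0.17 and 0.22 ± 0.21. The limma adjusted p of these genes was at least 0.478.

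**Figure D5:**
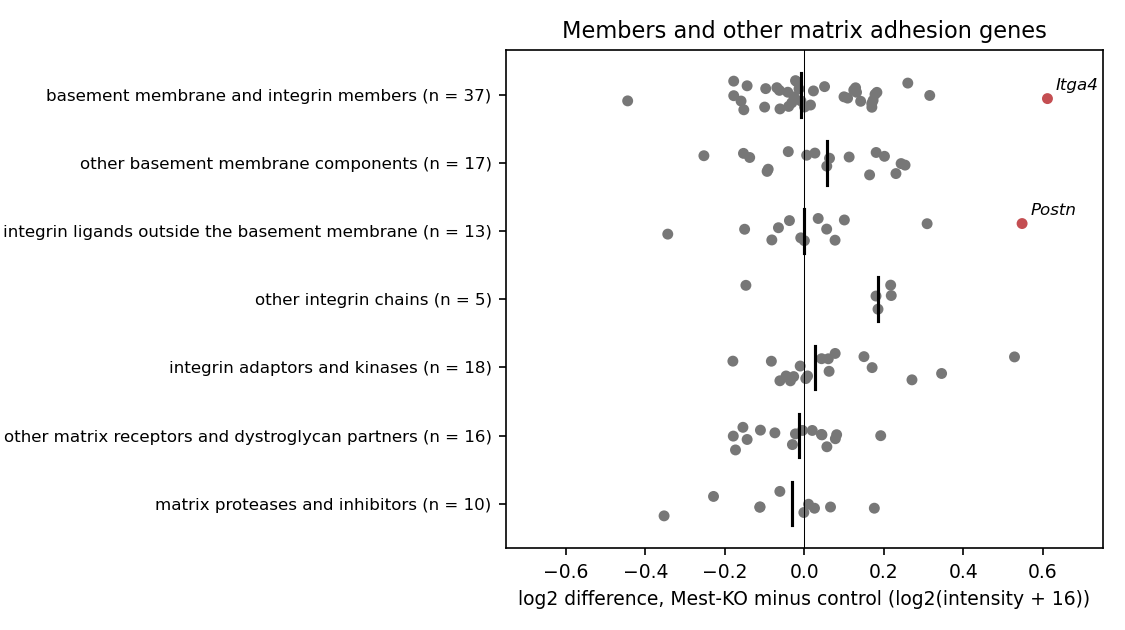
Log2 difference between Mest-KO and control (x axis, log2(intensity + 16)) for the 37 members and for 6 lists of other matrix adhesion genes. Each point is a gene, red where the limma adjusted p was under 0.05, vertical positions within a list are arbitrary, and black lines are list medians. Itga4 (0.61) and Postn (0.55) are the points past the threshold.

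Markers of several cell types differed between genotypes on average, though few passed the adjusted threshold. Over all genes 53.8% of differences were above 0, and groups were apart for 9.32% upward and 5.22% downward. These are shares of single genes and do not give how often the summed intensities of a list separate. All 6 measured neural crest and glia markers were higher in Mest-KO, and their summed intensity was 8531 to 8809 in control and 9732 to 10247 in Mest-KO. All 9 neuron markers were higher too, 1 of them past the threshold, at 30651 to 33474 in control and 36280.0 to 37856 in Mest-KO, and so were all 10 blood endothelium markers, at 5447 to 5789 in control and 5953 to 6438 in Mest-KO. In each of these lists the Mest-KO arrays lay above the controls, with median differences of 0.41, 0.27 and 0.07 in that order. Of 8 macrophage markers 7 were higher, with sums of 4178 to 4232 in control and 3971 to 5274 in Mest-KO that overlapped. Periotic mesenchyme markers were lower in 8 of 10, at 17644 to 18448 in control and 15716 to 17166 in Mest-KO, which did not overlap. Otic epithelium, head muscle, surface ectoderm and smooth muscle markers overlapped between groups, at 12438 to 13930.4 in control and 12927 to 14279 in Mest-KO for the first, 599 to 1319 in control and 610.2 to 1157 in Mest-KO for the second, 9434 to 11275 in control and 8069 to 11457 in Mest-KO for the third and 6016 to 6291 in control and 6000.0 to 7057 in Mest-KO for the fourth. In the same order, 6 of 9, 3 of 7, 7 of 8 and 1 of 7 of the markers tested were lower. All 6 hindbrain neural tube markers tested were lower, 1 of them past the threshold, with a median difference of -1.79, the largest in size of the 11 lists. Their sum was 416 to 1882 in control and 152 to 391 in Mest-KO, lower on every Mest-KO array although the mean log2 deviations overlapped, with Olig2 at background on every array. All 6 erythroid markers tested were lower too. Their sums, 28582 to 30009.7 in control and 23587 to 28844 in Mest-KO, overlapped, with Hba-a1 at background. The part of these cell types in the Itga4, Lamb2, Agrn, Itga6 and Postn values was not tested.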

How the data were processed

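RNA from 6 pools (300 ng each, per the labels' protocols) was hybridised to 1-colour arrays, 3 of each genotype, grouped by the titles. The authors deposited linear intensities. Expression Console 1.1 is named in the submitters' processing notes, with no summarization or background method stated in the sources used here. Trimmed of 2% at either end, the probe set mean was equal on all arrays, so the deposited intensities were already scaled and cannot show a shift of most genes together. A table of the platform's annotation gave 34945 probe sets 1 gene symbol, 932 several and 9160 none. Each gene was represented by its brightest probe set, kept above the 30th percentile, which left 14170 genes, or 31526 single probe sets. Tests were limma 3.58.1 in R 4.3.3 on log2(intensity + 16) with genotype as the only term, eBayes with trend, two-sided, adjusted over all genes or all probe sets kept. Errors of differences are standard errors and those of intensities are SD. The added 16 shrinks differences of dim genes. Intensities of different probe sets are not comparable as levels. Precision is limited by having 6 arrays. The labels call the arrays biological replicates. The steps were tested on simulated data. Promoter windows came from a RefSeq table of GRCm38.p6. The members and lists were chosen with earlier results of these data known, so no p over a list alone and no set test is given. Every member and every Itga4 probe set is given. Values on every array were set for members past the threshold, those with separated groups and an unadjusted p under 0.05 and those with the largest differences, and other per-array values were chosen after they were seen. Second probe sets are described where they differ in direction at an unadjusted p under 0.05. Those of Npnt, Dag1, Fras1, Itga9 and Itgb5 fall outside this rule and were added after their values were seen. Of each related list, genes past the threshold and the 3 smallest p are named. Alternatives were other scalings, filters, pseudocounts, probe set rules and variance models, a replicate block and leaving out each array.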

Additional observations from a re-analysis of the deposited data

How the results depend on the processing

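The member count of 1 (Itga4) stayed at 1 with quantile normalization, arrays centred on their medians, the filter at the 50th percentile, pseudocounts of 1 and 64 and array weights. Over all genes 21 passed, and over single probe sets 21. With arrays centred on their medians these were 78 and 66, and the 78 split into 22 higher and 56 lower, against 12 and 9. With no filter they were 2 and 6, without the variance trend 1 and 4, and the members 0 in both. With the mean of all probe sets, 6 genes and 0 members passed. Leaving out one array at a time gave 2 to 82 genes, 8 to 117 probe sets and 0 to 1 members. The causes were not tested. The labels number the pools 1 to 3 in both groups. Deviations of same-numbered arrays from their group means correlated at -0.03, -0.11 and -0.15, and those of differently numbered arrays at -0.15 to 0.24. From 3 arrays a group such values cannot settle whether the number pairs them. With the replicate block 9 genes and 0 members passed, and Itga4 had a limma adjusted p of 0.064. Of 571 alternative values of the other 36 members 0 passed. In 55 the sign turned, over 22 members whose reported differences were at most 0.18 in size. The median of all genes moved to -0.05 with median centring. Dim genes such as Itga2, Lama3 and Itgb4 are limited by their signal over background.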
